A study of Mus musculus with 4 samples.

Results

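*Foxp3*, the 4 Ikaros-family genes *Ikzf1* to *Ikzf4*, and *Runx1* with its partner gene *Cbfb* were examined for binding of JunB, BATF and IRF4 in activated regulatory T (Treg) cells. Of the 103355 peaks in the 4 deposited lists, 164 had their centre within 50 kb of an annotated transcription start site (TSS) of these 7 genes. They comprised 53 of 29659 JunB peaks, 25 of 13570 BATF peaks, 40 of 31093 IRF4 peaks of *Junb*-sufficient cells, and 46 of 29033 IRF4 peaks of *Junb*-deficient cells. The genes were chosen by name and not by their binding, though earlier results of these data were known. The data were chromatin immunoprecipitation-sequencing (ChIP-seq) peak lists, 1 library per condition, from C57BL/6 mouse Treg cells. The study's methods describe splenic CD4+CD25+ cells kept for 60 h with anti-CD3, anti-CD28 and IL-2. The sample labels give the genotypes as Foxp3cre JUNB+/+ and Foxp3cre JUNBFl/Fl, whereas the methods name floxed *Junb* without Cre for the sufficient cells and with *Cd4*Cre for the deficient ones. A *Foxp3*-driven Cre deletes in Treg cells and a *Cd4*-driven Cre in T cells at large, and the lists do not show which was used. The antibody field exchanges BATF and IRF4 for the *Junb*-sufficient cells, and the libraries are named here by their titles. Peak positions hold no expression values, so the Treg identity of the cells could not be checked against marker genes.

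Foxp3 is the forkhead factor that defines Treg cells, and its gene is known for conserved noncoding elements upstream and in its introns that start and keep its transcription. The Ikaros family are zinc-finger factors of lymphocytes. Helios (*Ikzf2*) and Eos (*Ikzf4*) are known as partners of the Treg programme, while Ikaros (*Ikzf1*) and Aiolos (*Ikzf3*) act more widely in lymphocytes. Runx1 binds DNA as a heterodimer with core-binding factor β, the product of *Cbfb*, and this pair is known to bind the *Foxp3* locus. JunB and BATF are AP-1 proteins that dimerise, and IRF4 can bind beside such a dimer on a composite element called AICE, in which an AP-1 element stands next to an IRF site.

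Total tags per library ranged from 21127029 to 27399986, and 16.0 M to 17.9 M remained after the limit of 1 tag per position. Peaks were called in each library by itself at a false discovery rate of 0.001 and at least 4.0-fold over the surrounding 10 kb. JunB peaks were called with a width of 150 bp and the others with 605 to 612 bp, so a JunB peak had less width with which to overlap. The tag threshold was 10 for JunB and 19 for the others. The minimum distance between peaks was 300 bp for JunB and 1210 to 1224 bp for the others. The local filter removed 5.25% of putative JunB peaks and 36.2% to 37.4% of the others. The score is 1 for every peak, so no strength of binding is given. In its stead each peak is described by its place in its list, as a percentage from the top. The file headers do not name what the lists are ordered by, and reading a high place as strong binding would be an assumption. Of the *Junb*-sufficient IRF4 peaks, 5.05% had no *Junb*-deficient counterpart in the first 10% of the list and 67.9% in the last. Peaks stand in genome order within runs of up to 2162 lines in the JunB list and 262 to 721 lines in the others, and places within such a run cannot be ranked. For the peaks described here the run spanned a median of 3.21 and at most 7.29 percentage points of the JunB list, and at most 2.48 points of any other list. With 1 library per genotype, no test between genotypes was possible. Intervals are exact 95% binomial (Clopper-Pearson) intervals over peaks, and they cover counting error only.

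The sequences below are mm9 plus-strand reference, with motif matches in capitals. The first set shows the 4 JunB peaks at these loci that hold an AICE match, 1 each at *Foxp3*, *Ikzf3*, *Runx1* and *Cbfb*. Of the *Runx1* peak, which lies in a 5′ untranslated region, only the match and its flanks are printed. In each, the capitals mark the AICE match.
Foxp3, JunB peak 14.1 kb upstream, chrX:7142660-7142810: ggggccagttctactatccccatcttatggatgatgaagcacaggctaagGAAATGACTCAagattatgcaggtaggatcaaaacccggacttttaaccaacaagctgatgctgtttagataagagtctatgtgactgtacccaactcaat
Ikzf3, JunB peak in an intron, chr11:98373688-98373838: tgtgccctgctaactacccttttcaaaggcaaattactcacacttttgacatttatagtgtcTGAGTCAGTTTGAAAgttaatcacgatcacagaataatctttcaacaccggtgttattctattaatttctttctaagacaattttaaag
Cbfb, JunB peak 49.4 kb upstream, chr8:107645057-107645207: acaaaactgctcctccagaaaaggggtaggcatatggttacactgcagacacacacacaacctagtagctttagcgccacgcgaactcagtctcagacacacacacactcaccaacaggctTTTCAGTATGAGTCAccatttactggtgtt
Runx1, stretch of the JunB peak at the distal promoter, chr16:92825855-92825877: atgaagGAAATGACTCAaaaatg

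The second set is from *Foxp3*. It shows an IRF4 peak with no JunB peak in the intron before the coding exons, and an IRF4 peak listed only in *Junb*-deficient cells. The capitals mark a match to the cAMP response element (TGACGTCA, the site of CREB and ATF factors) in the first and to the Runx consensus (TGTGGTT, here on the minus strand) in the second.
Foxp3, IRF4 peak centre in the intron, chrX:7161147-7161347: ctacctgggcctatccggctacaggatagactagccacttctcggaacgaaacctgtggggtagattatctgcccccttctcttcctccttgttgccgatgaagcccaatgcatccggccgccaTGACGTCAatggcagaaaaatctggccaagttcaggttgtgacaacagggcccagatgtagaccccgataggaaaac
Foxp3, IRF4 peak centre of Junb-deficient cells 8.74 kb upstream, chrX:7147963-7148163: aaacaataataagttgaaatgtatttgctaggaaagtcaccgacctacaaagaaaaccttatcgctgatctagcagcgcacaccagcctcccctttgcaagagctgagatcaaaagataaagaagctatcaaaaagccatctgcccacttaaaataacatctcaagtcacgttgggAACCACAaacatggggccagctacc

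The third set shows the JunB peaks at the 4 sites where JunB, BATF and IRF4 were listed together and the IRF4 peak had no counterpart in *Junb*-deficient cells. The capitals mark an AP-1 match in the second *Ikzf1* peak. The first *Ikzf1* peak has a Runx match within 100 bp of its centre, but outside the printed stretch.
Ikzf3, JunB peak 10.5 kb upstream, chr11:98417728-98417878: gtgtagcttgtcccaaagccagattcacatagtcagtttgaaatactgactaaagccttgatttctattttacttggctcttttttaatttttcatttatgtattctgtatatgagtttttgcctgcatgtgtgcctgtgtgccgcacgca
Ikzf1, JunB peak 34.0 kb downstream of a TSS, chr11:11634173-11634323: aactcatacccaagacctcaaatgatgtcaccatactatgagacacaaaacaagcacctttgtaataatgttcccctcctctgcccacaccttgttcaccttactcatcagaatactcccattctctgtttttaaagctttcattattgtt
Ikzf1, JunB peak 38.4 kb upstream, chr11:11546489-11546639: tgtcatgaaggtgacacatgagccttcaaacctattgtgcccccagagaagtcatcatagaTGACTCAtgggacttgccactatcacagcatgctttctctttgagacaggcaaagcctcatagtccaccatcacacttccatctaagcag
Runx1, JunB peak 11.0 kb downstream of the distal promoter, chr16:92815148-92815298: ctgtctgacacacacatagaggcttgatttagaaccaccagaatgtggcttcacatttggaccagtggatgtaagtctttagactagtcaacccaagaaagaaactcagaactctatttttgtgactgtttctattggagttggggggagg

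The fourth set shows the JunB peak at the highest-placed IRF4 site of the 7 loci, the IRF4 peak of *Ikzf2* that stood far higher in the *Junb*-deficient list, and the highest-placed JunB peak of *Runx1*. The capitals in the last mark an IRF pair site, in which the core of the IRF element occurs as a tandem repeat. The *Ikzf3* peak has an AP-1 match within 100 bp of its centre, but outside the printed stretch.
Ikzf3, JunB peak 4.10 kb upstream, chr11:98411372-98411522: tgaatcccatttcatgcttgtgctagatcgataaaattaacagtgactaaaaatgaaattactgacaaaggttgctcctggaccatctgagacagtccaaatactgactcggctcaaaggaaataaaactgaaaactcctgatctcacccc
Ikzf2, IRF4 peak centre 6.17 kb upstream, chr1:69738607-69738807: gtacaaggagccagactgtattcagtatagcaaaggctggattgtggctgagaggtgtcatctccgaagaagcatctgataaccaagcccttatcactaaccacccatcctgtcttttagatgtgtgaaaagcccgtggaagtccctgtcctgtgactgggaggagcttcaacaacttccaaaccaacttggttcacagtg
Runx1, JunB peak 39.4 kb upstream, chr16:92865666-92865816: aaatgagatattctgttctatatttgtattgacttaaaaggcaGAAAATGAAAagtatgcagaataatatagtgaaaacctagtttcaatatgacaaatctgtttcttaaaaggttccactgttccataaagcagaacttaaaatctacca

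The loci differed in their number of peaks. *Ikzf3* had the most peaks of every factor, with 15 JunB, 8 BATF and 12 IRF4 peaks. Its IRF4 peaks numbered 13 when JunB was deleted. *Ikzf1* and *Runx1* each had 9 JunB peaks, *Ikzf2* and *Ikzf4* each had 7, and *Foxp3* and *Cbfb* each had 3. *Ikzf2* was the only locus of the 7 with no BATF peak. For comparison, the median protein-coding gene had 1 JunB, 0 BATF and 2 IRF4 peaks in such a window, and 0.274% of 22238 gene names had 15 or more JunB peaks. Windows were unequal in length, since the TSSs of a gene can lie far apart. From end to end they spanned 169 kb for *Ikzf3* and 230 kb for *Runx1* against 100 to 115 kb for the others. The *Runx1* span includes a stretch between its TSSs too far from any of them to be searched. The length searched there was therefore below 230 kb. The counts were not scaled to these lengths. For the *Foxp3*, *Ikzf3*, *Ikzf4* and *Cbfb* windows, 1 to 4 other protein-coding genes also had a TSS inside, and 37 of the 53 JunB peaks had a TSS of the 7 genes as their nearest protein-coding one.

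**Figure D1:**
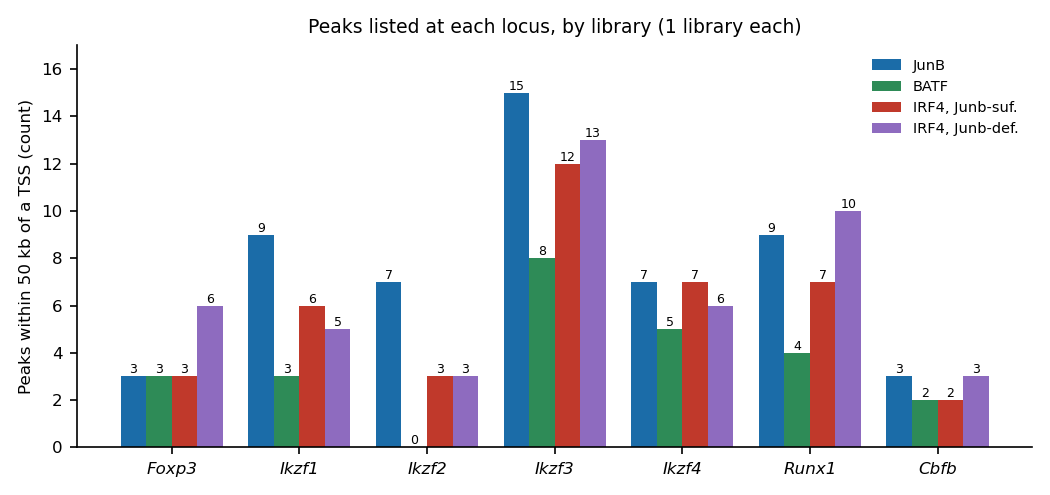
Number of peaks (y axis) within 50 kb of a TSS of each of the 7 genes (x axis), with a bar for each of the 4 libraries. Ikzf3 has the highest bar in every library, from 8 BATF peaks to 15 JunB peaks, and Ikzf2 has no BATF peak.

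Joining peaks that overlap by at least 1 bp gave 75 sites. JunB alone was listed at 21 sites, and JunB, BATF and IRF4 in both genotypes were listed together at 17. JunB peaks were called at a lower tag threshold and with less spacing than the others. What part this had in the sites of JunB alone was not tested. IRF4 of *Junb*-deficient cells was the only peak at 12 sites. JunB with IRF4 in both genotypes and no BATF made up 9 sites, of which *Runx1* had 4. Of the 17 sites with all 4 peaks, *Ikzf3* had 7, *Ikzf4* had 3, *Foxp3*, *Runx1* and *Cbfb* had 2 each, *Ikzf1* had 1, and *Ikzf2* had none.

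**Figure D2:**
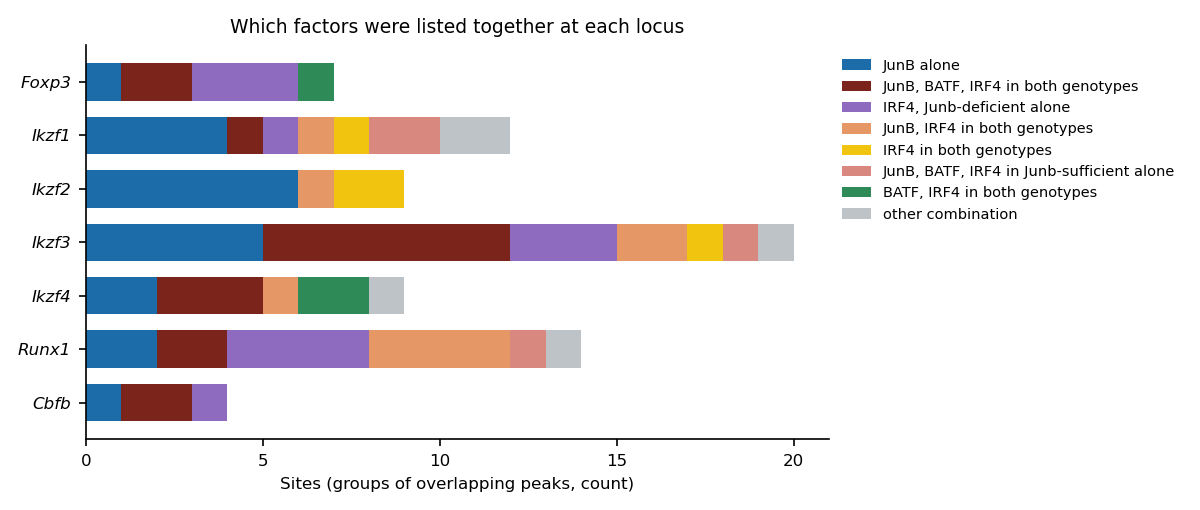
Number of sites (x axis) at each of the 7 loci (y axis), coloured by the libraries that listed a peak there. JunB alone is the largest class of Ikzf1 and Ikzf2 (4 and 6 sites), and the site with JunB, BATF and IRF4 in both genotypes is the largest class of Ikzf3 (7 sites).

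JunB peaks overlapped both BATF and IRF4 in 21 of 53 cases (39.6%, 95% interval 26.5 to 54.0%). The background, all JunB peaks within 50 kb of a protein-coding TSS, was 34.1%, which lies inside that interval. JunB peaks with neither partner numbered 22 of 53 (41.5%), against 47.8% in the background. No JunB peak here overlapped BATF without IRF4. BATF peaks overlapped JunB in 21 of 25 cases against 69.9% in the background, and IRF4 in 24 of 25 against 88.5%. The IRF4 peaks of *Junb*-sufficient cells overlapped JunB in 31 of 40 cases (77.5%, 95% interval 61.5 to 89.2%), and the background was 38.5%. This overlap went with the place in the list. Of all IRF4 peaks, 96.8% overlapped JunB in the first 10% of the list, 83.5% in the next and 64.4% in the one after, where 9 of 9, 10 of 12 and 5 of 6 of the peaks at the 7 loci did. These IRF4 peaks also stood high in their list. Their median place was 16.2% from the top against 50.2% for all IRF4 peaks near protein-coding genes, and 36 of the 40 stood in the first 50% of the list. The JunB peaks did not share this, with a median place of 49.4% against 46.4%. BATF peaks had a median place of 22.4% and IRF4 peaks of *Junb*-deficient cells one of 18.7%, and both backgrounds had theirs in the middle of the list.

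**Figure D3:**
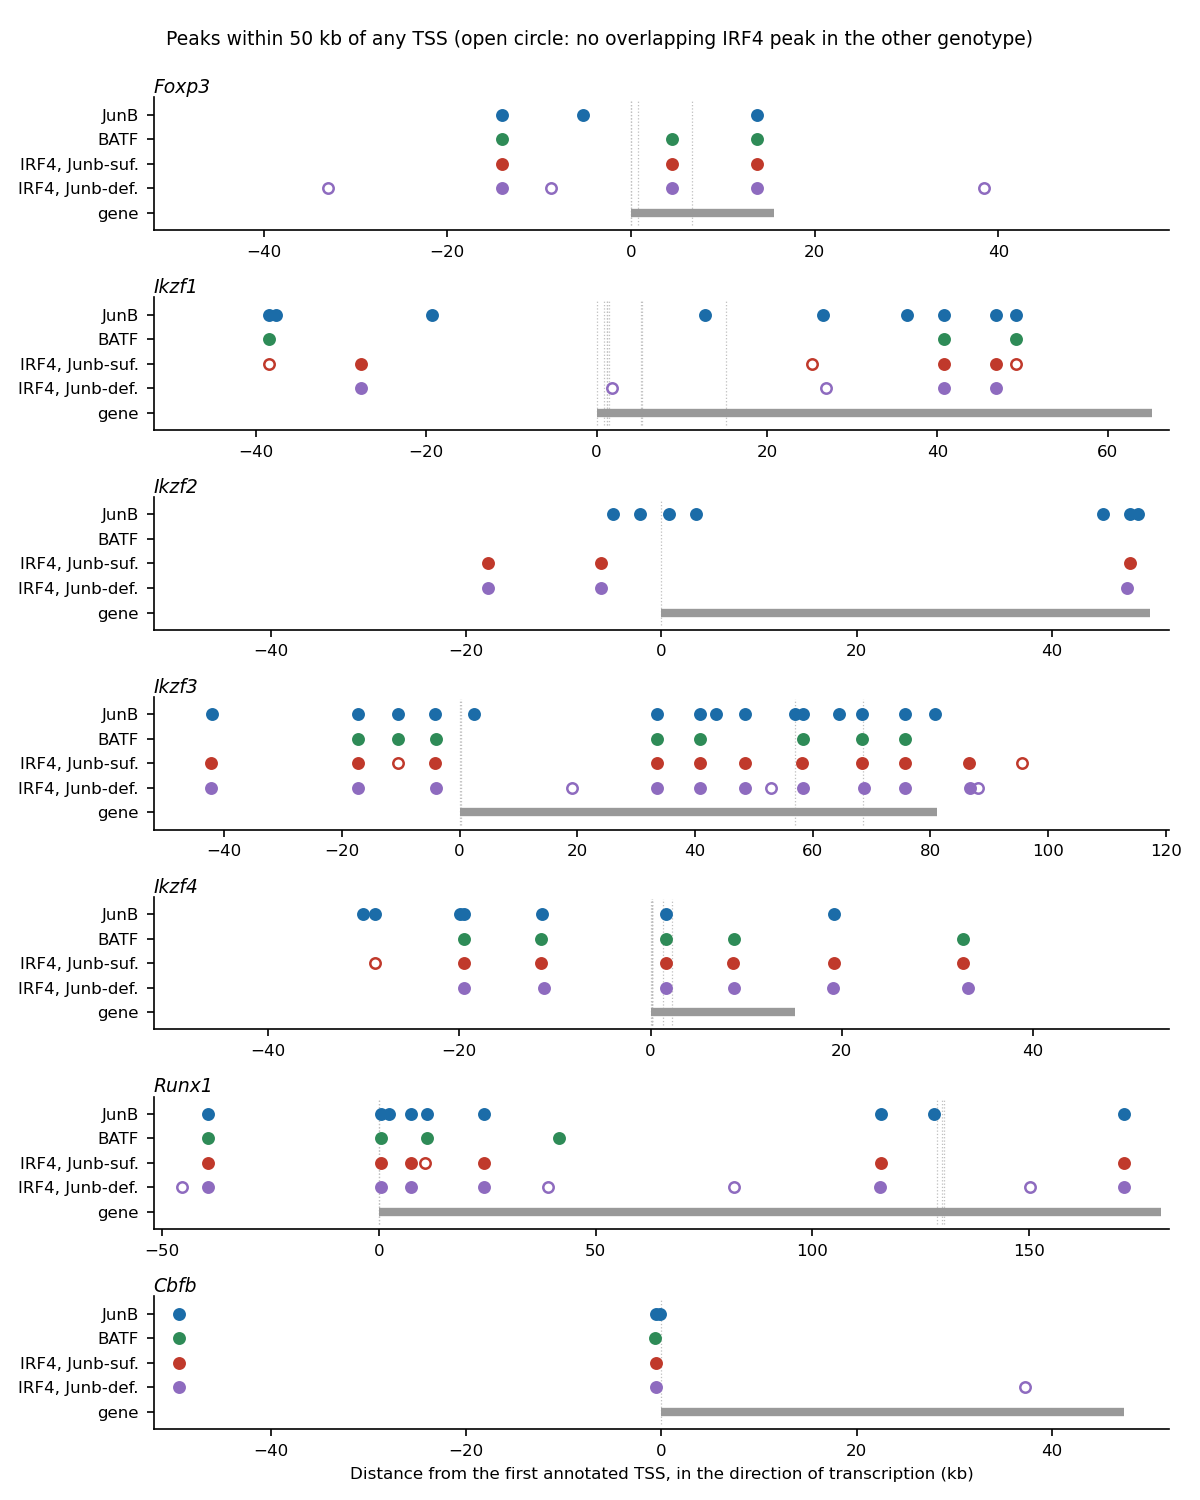
Peak centres of the 4 libraries (rows) along each of the 7 loci, in kb from the first annotated TSS in the direction of transcription, with the gene as a grey bar that stops at the window edge and TSSs as dotted lines. Open circles are IRF4 peaks with no overlapping IRF4 peak in the other genotype, 7 in Junb-sufficient cells and 13 in Junb-deficient cells.

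*Foxp3* (chromosome X, 7156802 to 7172369, plus strand) had 3 sites with IRF4 in *Junb*-sufficient cells, and all 3 were listed in *Junb*-deficient cells. The site 14.0 kb upstream, in an intron of the neighbouring gene *Ppp1r3f*, had JunB at a place of 11.5%, BATF at 47.2%, and IRF4 at 15.0% in *Junb*-sufficient and 16.2% in *Junb*-deficient cells. Its AICE match is the one printed in the first set. The site in the *Foxp3* intron, 4.45 kb downstream of the first TSS, had BATF at 63.4% and IRF4 at 13.2%, and no JunB peak. IRF4 stood at 7.97% there in *Junb*-deficient cells, so it was higher in the list without JunB. A region of this intron is known as CNS2, an element that keeps *Foxp3* transcribed through cell division, but the annotation used here does not map it, and whether the peak lies on it was not tested. The cAMP response element printed for this peak was the only such match among the 40 IRF4 peaks (2.50%, 95% interval 0.0633 to 13.2%). The share over all IRF4 peaks near protein-coding genes, 0.918%, lies inside that interval. The site 13.7 kb downstream of the first TSS, in a 3′ untranslated region of *Foxp3*, had all 3 factors lower in the lists, with JunB at 58.8%, BATF at 78.2%, and IRF4 at 42.6%. IRF4 stood at 59.2% there in *Junb*-deficient cells.

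*Foxp3* also had 3 IRF4 peaks that were listed only in *Junb*-deficient cells. The one 8.74 kb upstream, at 7147761 to 7148365 in an intron of *Ppp1r3f*, stood at place 1900 of 29033 (6.54%), above the 16.2% of the AICE site in the same list. It had no JunB or BATF peak. The nearest IRF4 peak of *Junb*-sufficient cells lay 4669 bp away, at the AICE site, and peaks must stand 4.0-fold over the surrounding 10 kb to be listed. Whether that filter removed a *Junb*-sufficient peak here was not tested. The others, 33.0 kb upstream and 38.4 kb downstream of the first TSS, stood at 94.2% and 87.2%, near the end of the list. The remaining JunB peak of the locus lay 5.23 kb upstream, 167 bp from a TSS of *Ppp1r3f*, and had no partner.

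*Ikzf1* (Ikaros, chromosome 11, 11585006 to 11672929, plus strand) had 3 of 6 IRF4 peaks without a *Junb*-deficient counterpart. The 95% interval of that share, 11.8 to 88.2%, includes the 34.3% of IRF4 peaks near protein-coding genes. The site with the highest-placed peaks of the locus was kept. It lay in an intron 25.6 kb downstream of a TSS, with JunB at 3.75%, BATF at 22.0%, and IRF4 at 2.49%, and at 4.27% in *Junb*-deficient cells. The next site with all 3 factors, 34.0 kb downstream of that TSS, had JunB at 13.4%, BATF at 25.2% and IRF4 at 11.7% and was not listed in *Junb*-deficient cells. The nearest *Junb*-deficient IRF4 peak lay 1809 bp away, between those sites, at 11631522 to 11632126. IRF4 was listed there in both genotypes, at 16.0% and 8.32%, with a JunB peak and no BATF peak. The second missing site with JunB and BATF lay 38.4 kb upstream, nearest to the gene *4930512M02Rik*, with IRF4 at 49.5%. The third missing peak had no JunB, lay 10.1 kb downstream of a TSS, and stood at 43.7%. A *Junb*-deficient IRF4 peak lay 1004 bp from it, at a JunB peak, and had itself no *Junb*-sufficient counterpart. *Ikzf1* also had an IRF4 peak 402 bp downstream of a TSS in *Junb*-deficient cells alone, at a place of 15.3%. No JunB or BATF peak lay there.

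*Ikzf2* (Helios, chromosome 1, 69577788 to 69732534, minus strand) had 7 JunB peaks, of which 6 were alone, and no BATF peak. No BATF peak was listed for 51.1% of protein-coding genes. The 7 JunB peaks of *Foxp2*, a relative of *Foxp3*, also overlapped neither BATF nor IRF4. Of the 4 JunB peaks of the Ikaros-family gene *Ikzf5*, 2 overlapped neither. From end to end the *Foxp2* window spanned 575 kb against 100 kb for *Ikzf2*. The part of the *Foxp2* span near enough to a TSS to be searched was not measured. The JunB peaks of *Ikzf2* stood at places from 22.5% to 87.8%. The 3 IRF4 peaks were all kept, and all 3 stood higher in the *Junb*-deficient list. The peak 6.17 kb upstream moved from 16.3% to 1.06%, which was place 5065 of 31093 and place 308 of 29033. The peak 17.7 kb upstream moved from 85.1% to 59.3%. The peak 48.0 kb into the gene, the only one with JunB, moved from 26.4% to 16.4%, and its centre shifted by 358 bp. Among 15823 IRF4 pairs near protein-coding genes, 17.4% rose by as many points as the first of these and 7.75% by as many as the second. These shares take pairs of any starting place, and a pair that starts high in the list has less room to rise.

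*Ikzf3* (Aiolos, chromosome 11, 98326216 to 98407345, minus strand) held the highest-placed sites. The highest IRF4 peak of the 7 loci lay 4.10 kb upstream of an *Ikzf3* TSS and 970 bp from a TSS of *Zpbp2*, its nearest protein-coding gene, at place 31 of 31093 in *Junb*-sufficient and place 123 of 29033 in *Junb*-deficient cells. JunB stood at 1.37% there and BATF at 0.803%. The next lay inside the gene at the start of a short non-coding transcript, with IRF4 at place 164 in *Junb*-sufficient cells and JunB at 1.29%, and at 0.520% of the *Junb*-deficient list. The next, 1.28 kb downstream of another such start, had IRF4 at place 253 and place 319. The site with the highest JunB peak of all 7 loci behaved differently. At 98417457 to 98418069, 10.4 kb upstream in an intron of *Zpbp2*, JunB stood at place 365 (1.23%), BATF at place 386 (2.84%) and IRF4 at place 3118 (10.0%), and no IRF4 peak was listed in *Junb*-deficient cells within 5737 bp. The other missing IRF4 peak of the locus, in an intron of *Grb7*, had neither JunB nor BATF and stood at 54.4%. The remaining 7 IRF4 peaks of *Ikzf3* were kept, with places from 2.44% to 26.0% in *Junb*-sufficient and from 4.69% to 30.0% in *Junb*-deficient cells. Of these, the intronic site with an AICE match moved farthest, from 14.1% to 24.2%. *Ikzf3* had 3 IRF4 peaks in *Junb*-deficient cells alone, at 8.73%, 23.8% and 32.4%, none with JunB.

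*Ikzf4* (Eos, chromosome 10, 128067899 to 128083047, minus strand) kept 6 of 7 IRF4 peaks. Its highest site lay 19.5 kb upstream, where *Suox* is the nearest protein-coding gene. It had JunB at 12.3%, BATF at 7.65%, and IRF4 at 2.90%, and at 3.87% in *Junb*-deficient cells. At the promoter, 234 bp downstream of a TSS, IRF4 stood at 31.2% and at 24.2% in *Junb*-deficient cells, with JunB at 79.3%. Both sites with BATF and IRF4 but no JunB peak were kept, and they moved in opposite directions. The one in an *Ikzf4* intron rose from 34.1% to 17.5%. The one 30.5 kb downstream, nearest to the gene *Gm9182*, fell from 40.3% to 77.0%, the longest fall of the 33 kept peaks. The peaks of the 2 genotypes at the latter overlapped only in part, with centres 434 bp apart. Of all pairs near protein-coding genes, whatever their starting place, 4.95% fell as far. The missing peak, 28.8 kb upstream near *Suox*, overlapped JunB and stood at 77.0%.

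*Runx1* (chromosome 16, 92601712 to 92826311, minus strand) has a distal and a proximal promoter, and its TSSs span 130416 bp. The distal promoter had JunB at 4.97%, BATF at 17.9%, and IRF4 at 2.97%, and at 4.06% in *Junb*-deficient cells, with the AICE match printed in the first set. The proximal promoter had a JunB peak 742 bp upstream at 68.9%, and no BATF or IRF4 peak. The site 39.4 kb upstream of the distal promoter had the highest JunB peak of the locus (2.07%), with BATF at 8.34% and IRF4 at 7.05% and 10.1%. Of 7 IRF4 peaks, the one missing lay 10.7 kb downstream of the distal promoter, with BATF at 47.1%, JunB at 49.4% and IRF4 at 23.4%. It met its JunB peak only at the edge, by 37 bp. A further 4 IRF4 peaks of *Runx1* were listed in *Junb*-deficient cells alone, at places from 16.2% to 75.4%, all without JunB. The locus also had the only BATF peak without IRF4, 41.4 kb downstream of the distal promoter at 97.8%.

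*Cbfb* (chromosome 8, 107694574 to 107741886, plus strand) kept its 2 IRF4 peaks. The one 49.4 kb upstream, just inside the window and nearest to *Ces4a*, had an AICE match and moved from 6.85% to 11.6%. The one 598 bp upstream of the TSS moved from 12.4% to 20.7%, with JunB at 27.8% and BATF at 22.4%. A JunB peak 102 bp upstream of the TSS stood alone at 89.1%, and an IRF4 peak 37.2 kb into the gene was listed in *Junb*-deficient cells alone, at 78.9%.

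Over the 7 loci, 7 of the 40 IRF4 peaks of *Junb*-sufficient cells had no counterpart in *Junb*-deficient cells (17.5%, 95% interval 7.34 to 32.8%), against 34.3% of IRF4 peaks near protein-coding genes. Where a counterpart had to have its centre within 100 bp, 13 of 40 had none (32.5%), against 45.0%. Of those shared with JunB, 5 of 31 had none (16.1%, 95% interval 5.45 to 33.7%), against 23.4%. Of those not shared with JunB, 2 of 9 had none, against 41.1%. At the 21 IRF4 peaks shared with JunB and BATF, 4 had none (19.0%), against 16.0%. The share without a counterpart depended on the place in the list, and the IRF4 peaks of these loci stood high. Among all IRF4 peaks shared with JunB, it was 4.95% in the first 10% of the list, 13.1% in the next and 22.0% in the one after. In those parts, 0 of 9, 2 of 10 and 1 of 5 such peaks of the 7 loci had none. What part the high places had in the lower share at the 7 loci was not tested.

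In the other direction, 13 of 46 IRF4 peaks of *Junb*-deficient cells had no *Junb*-sufficient counterpart (28.3%, 95% interval 16.0 to 43.5%), against 30.2% near protein-coding genes. With the BATF and IRF4 lists exchanged, as the antibody field has them, it was 26 of 46 (56.5%), against 66.5%. Of those at a JunB peak, 1 of 27 had none, against 7.63%. Of those away from JunB peaks, 12 of 19 had none (63.2%, 95% interval 38.4 to 83.7%), against 41.6%. The 12 were spread over *Foxp3* (3), *Ikzf1* (1), *Ikzf3* (3), *Runx1* (4) and *Cbfb* (1). *Ikzf2* and *Ikzf4* had none.

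The 33 kept IRF4 peaks showed no common shift, 15 standing higher and 18 lower in the *Junb*-deficient list. Among all 15823 pairs near protein-coding genes, 7753 stood higher and 8070 lower. At JunB peaks, 17 of 26 stood lower, against 4310 of 7105 pairs at JunB peaks near protein-coding genes. The median change was 1.15 percentage points lower over the 26 and 1.98 points lower over the 7105. Away from JunB peaks, 6 of 7 stood higher, with a median change of -8.70 points. In the corresponding background 4958 of 8718 stood higher, with a median of -2.93. The lists have different lengths and keep no tag counts, so a change of place is not a change of signal.

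**Figure D4:**
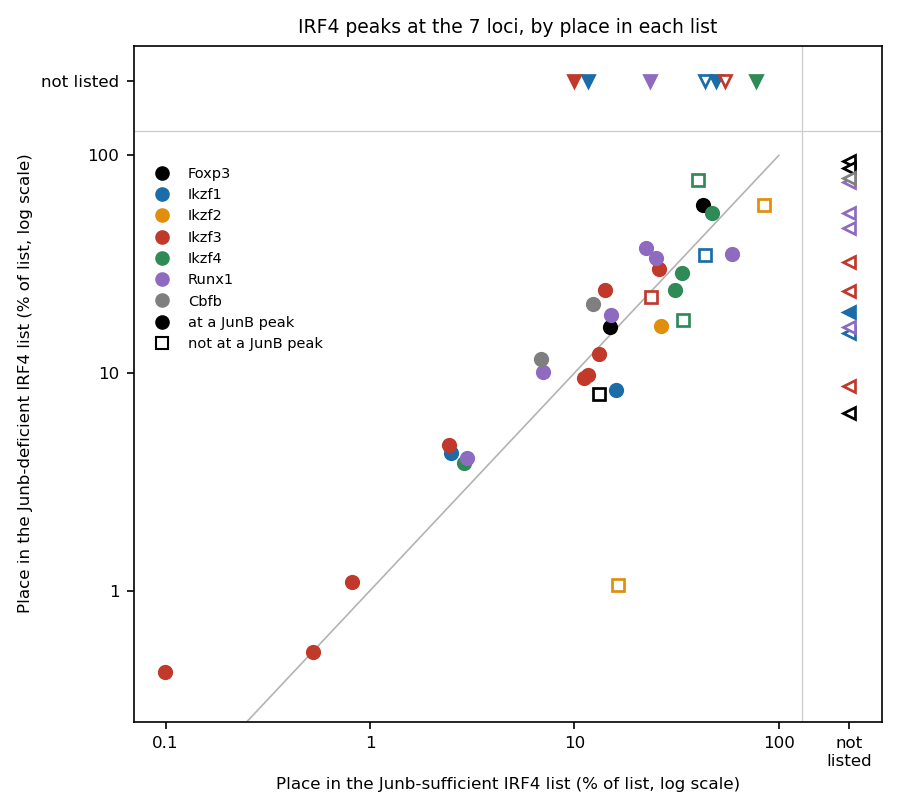
Place of each IRF4 peak in the Junb-sufficient list (x axis) and of its overlapping peak in the Junb-deficient list (y axis), in percent of the list on log scales, coloured by gene. Filled marks overlap a JunB peak and open marks do not, and triangles are the 7 and 13 peaks not listed in the other genotype. The 33 pairs lie on both sides of the diagonal, and the lowest open square is the Ikzf2 peak at 16.3% and 1.06%.

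Matches to fixed consensus letters were searched on both strands within 100 bp of each peak centre. The AP-1 consensus (TGACTCA or TGAGTCA) was found in 18 of 53 JunB peaks (34.0%, 95% interval 21.5 to 48.3%), against 27.3% of JunB peaks near protein-coding genes and 3.20% of windows 5 kb downstream of them. It was found in 11 of 21 JunB peaks shared with BATF and IRF4, against 42.0% of such peaks near protein-coding genes. Of JunB peaks with neither, 4 of 22 had it, against 15.2%. The AICE consensus, which includes an AP-1 element, was found in 4 of 53 JunB peaks (7.55%, 95% interval 2.09 to 18.2%), against 3.01% and 0.140%. All 4 lay at sites with JunB, BATF and IRF4, and all 4 IRF4 peaks were kept in *Junb*-deficient cells. Near protein-coding genes, only 16.0% of IRF4 peaks shared with JunB and BATF had no counterpart, with or without an AICE match. In the *Junb*-deficient list the *Foxp3*, *Runx1*, *Cbfb* and *Ikzf3* sites stood 1.21, 1.09, 4.78 and 10.1 percentage points lower. None of the 5 missing IRF4 peaks shared with JunB had an AICE match, and 1 had an AP-1 match, against 13 of the 26 kept ones. Near protein-coding genes the AICE share was 3.73% of missing and 5.05% of kept peaks shared with JunB. The 95% interval of 1 of 5 is 0.505 to 71.6%, and near protein-coding genes the AP-1 share was 49.1% of missing and 35.1% of kept peaks. The Runx consensus was found in 4 of 53 JunB peaks against 9.51%, and in 7 of 46 *Junb*-deficient IRF4 peaks against 11.9%. The forkhead consensus (TGTTTAC), a core of the Foxp3 site, was found at no peak of the 7 loci, against 2.84% to 3.50% of peaks near protein-coding genes, depending on the list. The upper 95% limits at the 7 loci, from 6.72% for JunB to 13.7% for BATF, lie above those shares. A match is a description of the letters and does not show a bound site.

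The other members of the gene families (*Ikzf5*, *Runx2*, *Runx3*, *Foxp1*, *Foxp2* and *Foxp4*) had 48 JunB and 40 IRF4 peaks. Of these, 20 JunB peaks overlapped both BATF and IRF4 (41.7%), and 9 IRF4 peaks had no *Junb*-deficient counterpart (22.5%). *Runx2* had 5 of these 9, while *Foxp1*, with 15 IRF4 peaks, had 1. A list of other transcription factor genes of T-cell states (*Foxo1*, *Bach2*, *Satb1*, *Tcf7*, *Lef1* and *Gata3*) had 58 JunB and 45 IRF4 peaks, of which 20 (34.5%) overlapped both and 10 (22.2%) had no counterpart. The 7 loci, with 39.6% and 17.5%, had intervals that include the shares of both lists. IRF4 peaks overlapped JunB in 25 of 40 cases (62.5%) in the first list and in 26 of 45 (57.8%) in the other, against 31 of 40 at the 7 loci.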

How the data were processed

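Reads had been aligned by the authors to the mm9 assembly (Bowtie2), and peaks had been called with HOMER (version 4.8 in the submitters' processing notes), in each library by itself and with no control library in the recorded command. The deposited lists hold positions and a score column filled with 1 throughout, which left no signal per peak to compare. Depth is known per library only, and the precision given is that over peaks. Positions were read as deposited and counted from 1. Peaks were called shared where they had 1 bp or more in common. TSSs were those of the GENCODE annotation of the same assembly, NCBIM37, and all 103355 peaks lay within its chromosomes. Backgrounds are all peaks of a list within 50 kb of a protein-coding TSS. A place is the line of a peak divided by the length of its list. Samples were assigned by title.

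The 7 genes, the gene lists and the tests were chosen with earlier results of these data known. The peaks named were all those of *Foxp3*, those within 1 kb of a TSS, the highest site of each factor at each gene, all sites of JunB with BATF and IRF4, IRF4 peaks missing at JunB, IRF4 peaks of *Junb*-deficient cells alone, and the pairs that moved farthest. Named after their values were seen were the remaining IRF4 peaks of *Ikzf2*, the missing peaks away from JunB, the *Ikzf1* site between 2 others, the *Ikzf4* sites without JunB, the cAMP response element, and the printed sequences of IRF4 peaks. Alternatives were other windows (20 and 100 kb), other overlap rules, list cuts, exchanged lists, other TSS sets, and each gene left out. Overlap calls were tested on simulated data, where 1464 of 4000 peaks had a partner and 1464 were found. Python 3.11.15, NumPy 2.4.6, SciPy 1.17.1, matplotlib 3.10.9, pyfaidx 0.9.0.4 and samtools 1.23.1 were used.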

Additional observations from a re-analysis of the deposited data

How the results depend on the processing

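Of 48 alternatives over 6 results, 46 stayed within the 95% interval of the value reported or, for the count of JunB peaks, within 1.5 times of it. Those intervals are wide and the alternatives reuse many of the same peaks, so this count does not measure stability. The exceptions were these. Cutting all lists to the length of the shortest raised the share of JunB peaks overlapping both BATF and IRF4 from 39.6% to 56.0%, over 25 peaks. No background was counted under that cut. Exchanging the BATF and IRF4 lists, as the antibody field has them, raised the share of *Junb*-deficient IRF4 peaks without a *Junb*-sufficient counterpart from 28.3% to 56.5% (the cause was not tested). Leaving out each gene in turn gave 11.8% (without *Ikzf1*) to 18.9% (without *Foxp3* or without *Ikzf2*) for IRF4 peaks without a *Junb*-deficient counterpart, and 34.2% (without *Ikzf3*) to 45.7% (without *Ikzf2*) for JunB peaks overlapping both partners. Requiring centres within 100 bp left 13 rather than 7 of the 40 IRF4 peaks without a counterpart (32.5%). Restricting peaks to those whose nearest protein-coding TSS is that of a member left 3 of 26 (11.5%), with no background counted for that restriction.

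With 1 library per condition, the spread between cultures or animals is unknown and the lists do not show how far below the threshold an absent peak lay. The numbers of peaks are small, and the intervals are accordingly wide. No paired analysis was possible because each condition had 1 library.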
